A study of Homo sapiens with 6 samples.

Results

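MiR-297 and miR-574-5p are 2 of the 386 mature miRNA probes named without an asterisk, and 2 of 581 probes in all, on a microRNA array of Hep3B, a human hepatocellular carcinoma cell line. They were taken by name, as every such probe whose stem was miR-297 or miR-574. They had been proposed because their signals rose steeply in these same 6 arrays when HDAC6 was overexpressed. Their rises are therefore given below as descriptions, with no test. The miR-574 precursor probe (miR-574-pre), named for the hairpin from which miR-574-5p is cut, was set beside them as context. The rule found no probe for miR-574-3p, for a miR-297 precursor or for a star strand of either miRNA.

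The study asked which miRNAs HDAC6, a deacetylase known for its action on tubulin in the cytoplasm, regulates in hepatocellular carcinoma. All cells were Hep3B and received a pcDNA3.1 plasmid with lipofectamine 2000, either empty (Mock, 3 arrays) or carrying HDAC6 (HDAC6, 3 arrays). The expression was transient, and HDAC6 itself was not measured. Per the labels, RNA of 3 extractions per condition was mixed in equal amounts into a pool, so the 3 arrays of a group may be repeated hybridizations of 1 pool, and every SD, SE and p-value below measures a spread that may be technical.

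A mature miRNA guides Argonaute to messenger RNAs, mainly through its seed (bases 2 to 8), and lowers their translation or stability. MiR-297 and miR-574-5p are both known as miRNAs rich in G and U. In human cells miR-297 is known to act on the VEGFA messenger RNA, where the RNA-binding protein hnRNP L competes with it, and on ABCC2, which encodes the drug exporter MRP2. MiR-574-5p is known in human lung cancer cells as a decoy that binds CUGBP1, a protein that recognises GU-rich RNA. Members of the mouse miR-297 family lie in a large cluster within Sfmbt2.

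RefSeq (GRCh38.p14) held the sequence of miR-574-5p, at chr4:38868056-38868078 on the plus strand, within the hairpin MIR574 at chr4:38868032-38868127. In the RefSeq gene table MIR574 overlaps FAM114A1 and TLR6, and MIR297 is on chromosome 4 as well. The mature sequence is printed with its seed in capitals, because its alternating G and U are the feature compared with other probes below. In the hairpin the capitals mark the 5p arm and then the 3p arm.
miR-574-5p: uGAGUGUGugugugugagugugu
miR-574-3p: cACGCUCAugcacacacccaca
MIR574 hairpin: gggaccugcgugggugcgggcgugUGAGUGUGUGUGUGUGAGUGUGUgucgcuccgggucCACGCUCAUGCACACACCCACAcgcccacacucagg

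Of the 23 bases of miR-574-5p, 21 are G or U (91.3%), and G alternates with U without a break over 13 bases, from position 4 to position 16, so the run takes in the end of the seed. No other of 2370 mature names in the RefSeq table has a run as long, and none shares its seed. A run of at least 6 bases is found in 25 of these 2370 names (1.05%). In the 3p arm, 18 of 22 bases are A or C (81.8%). In the minimum free energy fold of the 96-base hairpin, computed with RNAfold at -60.20 kcal/mol, 20 of the 23 bases of the 5p arm pair with the 3p arm. The whole mature sequence is part of the hairpin, and the letters of the array's probes were not used here, so whether either probe bound the other form was not tested.

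All values below are normalized log2 signals, on which a difference of 1 is a factor of 2. The arrays correlated across probes at r = 0.922 to 0.952 within Mock, 0.937 to 0.959 within HDAC6 and 0.779 to 0.848 between the groups. Because the arrays were brought to a common distribution, each change is relative to the other probes, and signal over background is unknown. All 6 miRNAs listed as hepatocyte or hepatoma markers were measured, and 3 of them lay above the array median on every array. In HDAC6 4 were lower (miR-192, miR-194, miR-148a and miR-21), whereas miR-122 and miR-885-5p were not called. The change of miR-122 was 0.40 (SE 0.219, limma, adjusted p = 0.166). The mean level of the 6 was 9.82 to 10.17 in Mock and 8.67 to 9.11 in HDAC6. Higher and lower here are limma calls (adjusted p under 0.05), which over all probes were 21.3% higher and 24.4% lower. Of markers of other cells, 1 of 5 haematopoietic miRNAs was measured (7.48 to 7.77 in HDAC6, 6.77 to 8.24 in Mock). So were 4 of 5 fibroblast or smooth muscle markers (7.20 to 7.72 and 7.12 to 7.39, with miR-214 higher) and 2 of 4 neural markers (7.55 to 7.76 and 7.91 to 8.28, with miR-219-2-3p higher and miR-128a lower). Among the fibroblast or smooth muscle markers 1 lay above the array median on every array and 2 below it, and among the neural markers 1 lay above. For endothelial and striated muscle cells 0 were measured. The part of these shifts in the results below was not tested.

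MiR-574-5p had signals of 10.05, 9.94 and 9.89 on Mock arrays 1, 2 and 3, and of 12.32, 12.63 and 12.25 on HDAC6 arrays 1, 2 and 3. The groups lay far apart: the lowest HDAC6 array stood 2.20 above the highest Mock array, the second widest such gap among the 581 probes. Means were 9.96 ± 0.08 in Mock and 12.40 ± 0.20 in HDAC6 (SD, n = 3), a difference of 2.44 (SE 0.192) or 5.43-fold. In antilogs the signal went from between 951 and 1058 to between 4871 and 6355. On each Mock array it ranked 70th to 76th of 581 probes by brightness, and on each HDAC6 array 6th to 10th.

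The miR-574 precursor probe had signals of 9.32, 8.97 and 8.63 on the Mock arrays and of 11.29, 11.90 and 10.77 on the HDAC6 arrays, in the same order of replicates. Every HDAC6 array was again above every Mock array, with a gap of 1.45. The difference of means was 2.34 (SE 0.322, 5.07-fold), from 8.98 ± 0.34 to 11.32 ± 0.56 (SD, n = 3). The precursor probe was thus the noisier of the pair: its SD in HDAC6 was above that of 89.7% of all probes, and that of miR-574-5p above 41.0%.

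Within each array, the signal of miR-574-5p minus that of its precursor was 0.73, 0.97 and 1.26 in Mock and 1.03, 0.74 and 1.48 in HDAC6. These values overlapped between the groups, and their means of 0.98 ± 0.27 and 1.08 ± 0.37 (SD, n = 3) differed by 0.10 (SE 0.266), less than the spread between arrays. The sign of this small difference turned without Mock 1 (-0.03) or without HDAC6 3 (-0.10). Hence the mature and hairpin probes of miR-574 changed by amounts that these arrays did not separate, which does not show that the amounts were equal.

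MiR-297 had signals of 8.49, 8.71 and 8.94 on the Mock arrays and of 10.85, 11.33 and 10.57 on the HDAC6 arrays. The groups did not overlap, and the gap between them was 1.63, the 6th widest. Means were 8.71 ± 0.23 and 10.92 ± 0.39 (SD, n = 3), which differ by 2.21 (SE 0.252), or 4.61-fold. MiR-297 stood between the 142nd and 179th place by brightness on Mock arrays and between the 24th and 45th on HDAC6 arrays. Across the array, 27.0% of probes had every HDAC6 value above every Mock value. Since the members were chosen for their rise, that share is background only.

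**Figure D1:**
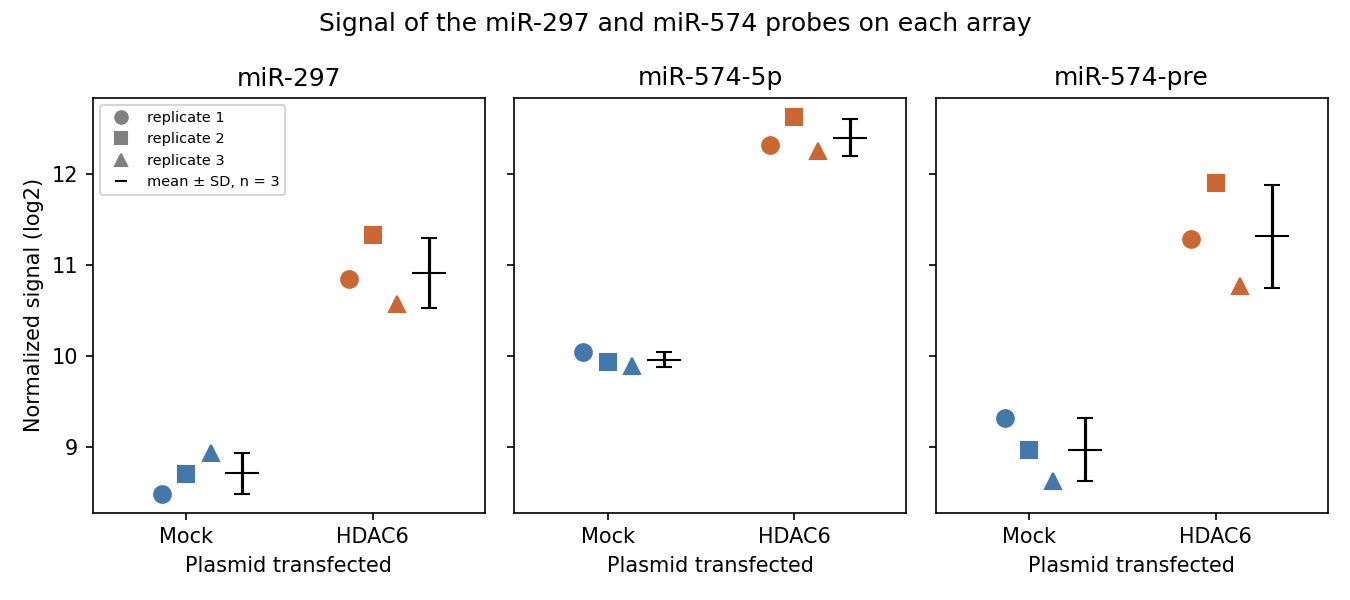
Normalized log2 signal (vertical axis) of miR-297, miR-574-5p and the miR-574 precursor probe on each of the 3 Mock and 3 HDAC6 arrays; points are arrays, with the replicate number as the symbol, and bars are the mean ± SD. The groups do not overlap for any of the 3 probes, and HDAC6 2 is the highest and HDAC6 3 the lowest HDAC6 array for each.

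By size of change miR-574-5p was 2nd, its precursor 4th and miR-297 5th of the 581 probes. Between and around them stood miR-302e (3.30, 1st), miR-1827 (2.38, 3rd) and the miR-648 precursor (2.15, 6th). The change of miR-574-5p exceeded that of miR-297 by 0.24, and the within-array differences behind this value overlapped between groups, at 0.95 to 1.56 in Mock and 1.30 to 1.68 in HDAC6. The order of miR-574-5p and miR-297 is thus not settled by the spread of the arrays.

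The probes also varied together within the HDAC6 group. On HDAC6 2 miR-297, miR-574-5p and miR-574-pre were 0.42, 0.23 and 0.58 above their group means, and on HDAC6 3 they were at -0.34, -0.15 and -0.55 from them. HDAC6 2 was also the highest HDAC6 array for 55 of the other 121 probes called higher, against 28 for HDAC6 1 and 38 for HDAC6 3, although their median deviation was 0.02 on HDAC6 2 and -0.02 on HDAC6 3. In Mock miR-574-5p and its precursor were both highest on Mock 1 and lowest on Mock 3, whereas miR-297 was highest on Mock 3 and lowest on Mock 1.

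The probes whose pattern was most like that of miR-297 were miR-566, miR-1827, miR-125a-3p and miR-574-5p. Likeness was the root mean square difference over the 6 arrays after each probe's own mean was removed, and the differences were 0.158, 0.160, 0.217 and 0.239 in that order. For miR-574-5p the nearest were miR-297 (0.239), its own precursor (0.270), miR-125a-3p (0.283) and miR-1827 (0.294). The precursor was in 11th place for miR-297 (0.354). As most of each pattern is the step between the groups, these are mainly probes with a rise of like size. HDAC6 2 was the highest HDAC6 array for all of them, while in Mock the highest array differed.

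**Figure D2:**
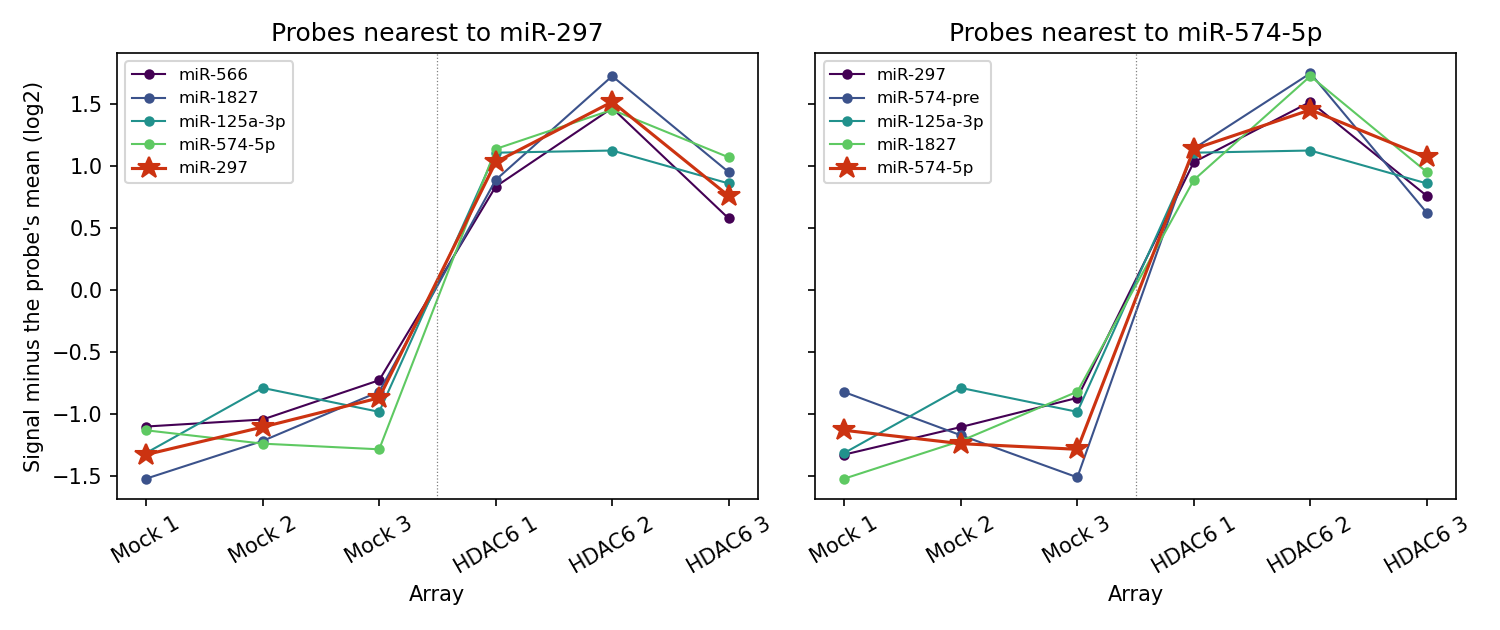
Signal minus the probe's own mean over the 6 arrays (log2, vertical axis) on each array (horizontal axis) for miR-297 and miR-574-5p (stars) and the 4 probes nearest to each; lines only join the values of a probe. All step up between Mock and HDAC6, and HDAC6 2 is the highest array for each.

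MiR-302e, miR-1827 and miR-125a-3p, also among the steepest risers, are printed, seed in capitals, to show how their base order compares with that of miR-574-5p.
miR-302e: uAAGUGCUuccaugcuu
miR-1827: uGAGGCAGuagauugaau
miR-125a-3p: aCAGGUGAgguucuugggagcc
Their longest alternating runs of G and U are of 3, 2 and 3 bases, and 58.8%, 61.1% and 63.6% of their bases are G or U. Their seeds differ from one another and from that of miR-574-5p. These 3 probes thus lack its repeat. The miR-648 precursor (6th by size of change) and miR-566 (8th) were not compared in this way. The RefSeq mature sequence of miR-648 does hold an alternating run of at least 5 bases, so not every steep riser lacks such a run. Whether the repeat bears on the rise was not tested.

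The converse was also looked at: whether other probes with alternating G and U moved in the same direction. Of the 386 mature probes, 182 (47.2%) could be paired with 1 RefSeq sequence, miR-297 not among them, so a check of base composition over the array is void, with under 80% of probes covered, and only the named probes are described. The list was of miRNAs other than the members with a run of at least 6 bases, on the RNA strand of the mature sequence. It held miR-2278, miR-1299 and miR-660, of 182 paired probes. Those of exact name are printed here with the seed in capitals.
miR-2278: gAGAGCAGuguguguugccugg
miR-1299: uUCUGGAAuucugugugaggga

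MiR-2278, with an 8-base run from position 8 to 15, the longest after miR-574-5p among the paired probes, had signals of 9.54, 9.88 and 8.94 in Mock and 9.67, 9.80 and 9.34 in HDAC6. Its groups overlapped, with a difference of 0.15 (SE 0.278, limma, adjusted p = 0.692). MiR-1299, with a 6-base run, rose from 9.54 ± 0.07 to 10.74 ± 0.34 (SD, n = 3), by 1.20 (SE 0.223, limma, adjusted p = 0.00487) or 2.29-fold. All 3 of its HDAC6 values, 10.94, 10.34 and 10.93, lay above its Mock values of 9.47, 9.53 and 9.62. MiR-660 fell by 0.62 (SE 0.208, adjusted p = 0.0404). Its name carries no arm and was paired with the only arm listed, miR-660-3p, so that the probe may read the other arm, and its call was lost under 9 of 13 alternatives (adjusted p from 0.0128 to 0.231 over all of them).

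Of the 3 probes paired with such a run, 1 was therefore higher and 1, miR-660, lower, with a median of 0.15. As miR-660 may read the other arm, that lower call may not belong to the list. Exact names alone left 2 probes, 1 higher and 0 lower, with a median of 0.67. Over the whole array limma called 45.8% of probes (266 of 581), 21.3% higher and 24.4% lower, and the median change was -0.09. At a run of at least 5 bases the list had 10 probes, 3 higher and 2 lower, with a median of 0.04. Where either arm of an ambiguous name counted, it also had 10, with 3 higher and 2 lower. Calls in 5 of 10 probes are near the share of the whole array.

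MiR-1293 and miR-1294, the non-members with at least 80% G plus U, both have 18 of 22 such bases (81.8%) and runs of at most 4 bases.
miR-1293: uGGGUGGUcuggagauuugugc
miR-1294: uGUGAGGUuggcauuguugucu
MiR-1293 was at 0.53 (SE 0.576, limma, adjusted p = 0.485) and miR-1294 at -0.13 (SE 0.354, adjusted p = 0.797). Mock 3 stood low for both, with 7.38 against 9.42 and 9.47 for miR-1293 and 6.81 against 8.04 and 8.11 for miR-1294. At 75% G plus U, 8 probes qualified, 1 higher and 2 lower. No other paired probe shared bases 2 to 7 with miR-574-5p.

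Among precursor probes, 80 of 104 (76.9%) had a RefSeq hairpin. Apart from miR-574-pre, 1 of them, the miR-30c-1 precursor, had an alternating run of at least 8 bases, which 1.03% of all RefSeq hairpins have. It had signals of 6.15, 6.05 and 6.24 in Mock and 6.37, 6.06 and 6.50 in HDAC6, which overlap, with a difference of 0.16 (SE 0.197, limma, adjusted p = 0.544). This probe was too dim for the refit of brighter probes alone, and its signal over background is unknown. Its lack of a call therefore says little about hairpins with such runs. With a run of at least 6 bases 3 precursors qualified and 0 of them passed the limma test, or an unadjusted p under 0.05 (changes of -0.35 to 0.16). Of all 104 precursor probes 32 were higher and 6 lower, with a median of 0.18, so that miR-574-pre, the largest rise among them, belongs to a class that was more often higher than lower.

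**Figure D3:**
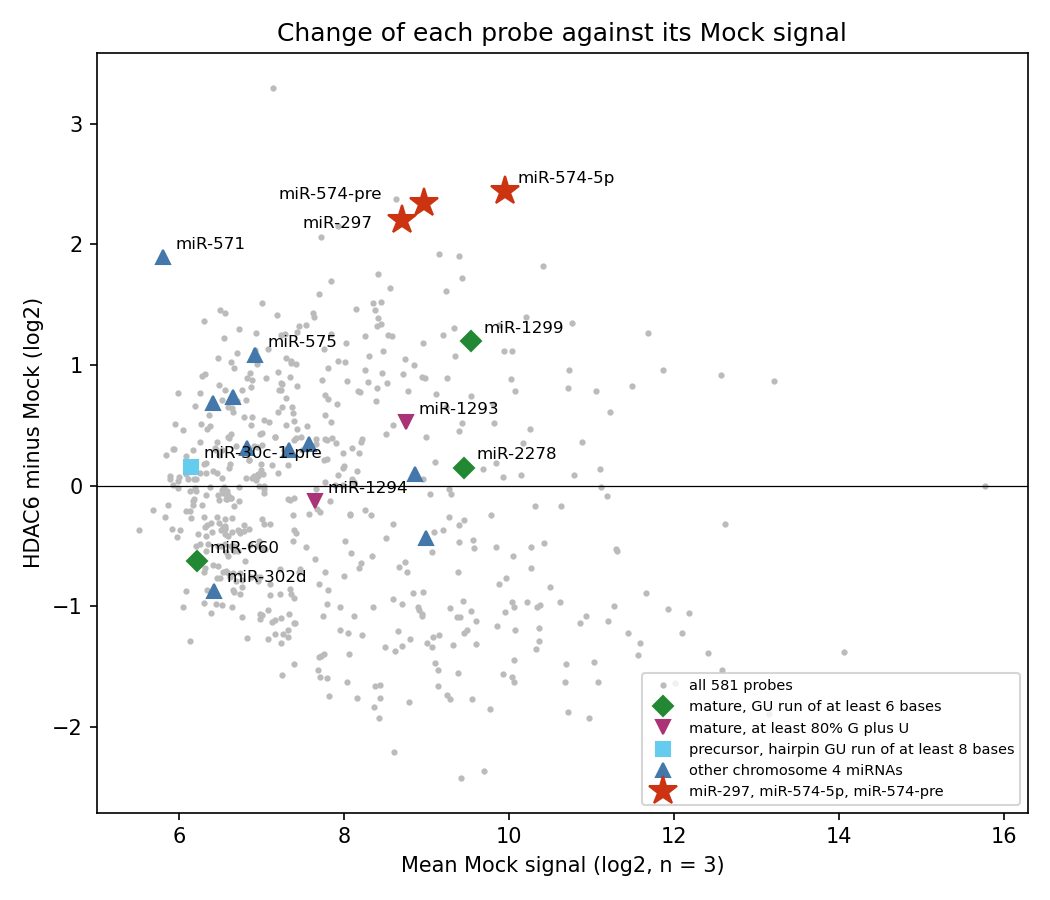
Change of every probe (HDAC6 minus Mock, log2, vertical axis) against its mean Mock signal (log2, horizontal axis); stars are miR-297, miR-574-5p and the miR-574 precursor, other symbols the probes grouped by sequence or chromosome, and grey points all 581 probes. The probes paired with GU runs or a high share of G and U lie between -0.62 (miR-660, which may read the other arm) and 1.20. The stars lie at 2.21 to 2.44. As the members were chosen for their rise in these arrays, almost any other probe lies below them.

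MIR297 and MIR574 both lie on chromosome 4, so the other probes of miRNAs encoded there alone were described. A chromosome was found for 449 of 490 mature and precursor probes (91.6%), and 10 other probes were on chromosome 4. Of these 3 were higher and 0 lower by limma (4 and 1 at an unadjusted p under 0.05), with a median of 0.33. MiR-571 rose by 1.89 (SE 0.258, limma, adjusted p = 0.00272), with values of 5.84, 5.48 and 6.12 in Mock and 7.52, 8.10 and 7.51 in HDAC6, which do not overlap. Its Mock values were dim, below the array medians of 7.51 to 7.58. An offset added to the antilogs, which shrinks the changes of dim probes most, reduced its rise to 1.01. MiR-571 was still called under all 14 alternatives. MiR-575 rose by 1.08 (SE 0.182, adjusted p = 0.00384), but its precursor probe was at -0.43 and did not pass (SE 0.374, adjusted p = 0.372). That precursor probe passed, as lower, under 1 of 14 alternatives, without Mock 3.

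The miR-572 precursor rose by 0.73 (SE 0.245, limma, adjusted p = 0.0407), a call lost under 7 of 14 alternatives (adjusted p from 0.00726 to 0.121), among them leaving out Mock 1, Mock 2 or any HDAC6 array. MiR-572 itself was at 0.69 (SE 0.285, adjusted p = 0.0829), and passed under 2 of 14 alternatives, repeated quantile normalization and without Mock 1. MiR-302d, of the pluripotency cluster that lies on the same chromosome, was at -0.87 (SE 0.338, adjusted p = 0.0674), and passed with array weights, with a trend and robust priors, and without HDAC6 2. MiR-1269, miR-576-3p, miR-943 and miR-1973 were between 0.09 and 0.34 and did not pass. Under 1 of 14 alternatives, the array weights, miR-1269 did. The share called higher, 3 of 10, stands beside 21.3% of all probes.

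**Figure D4:**
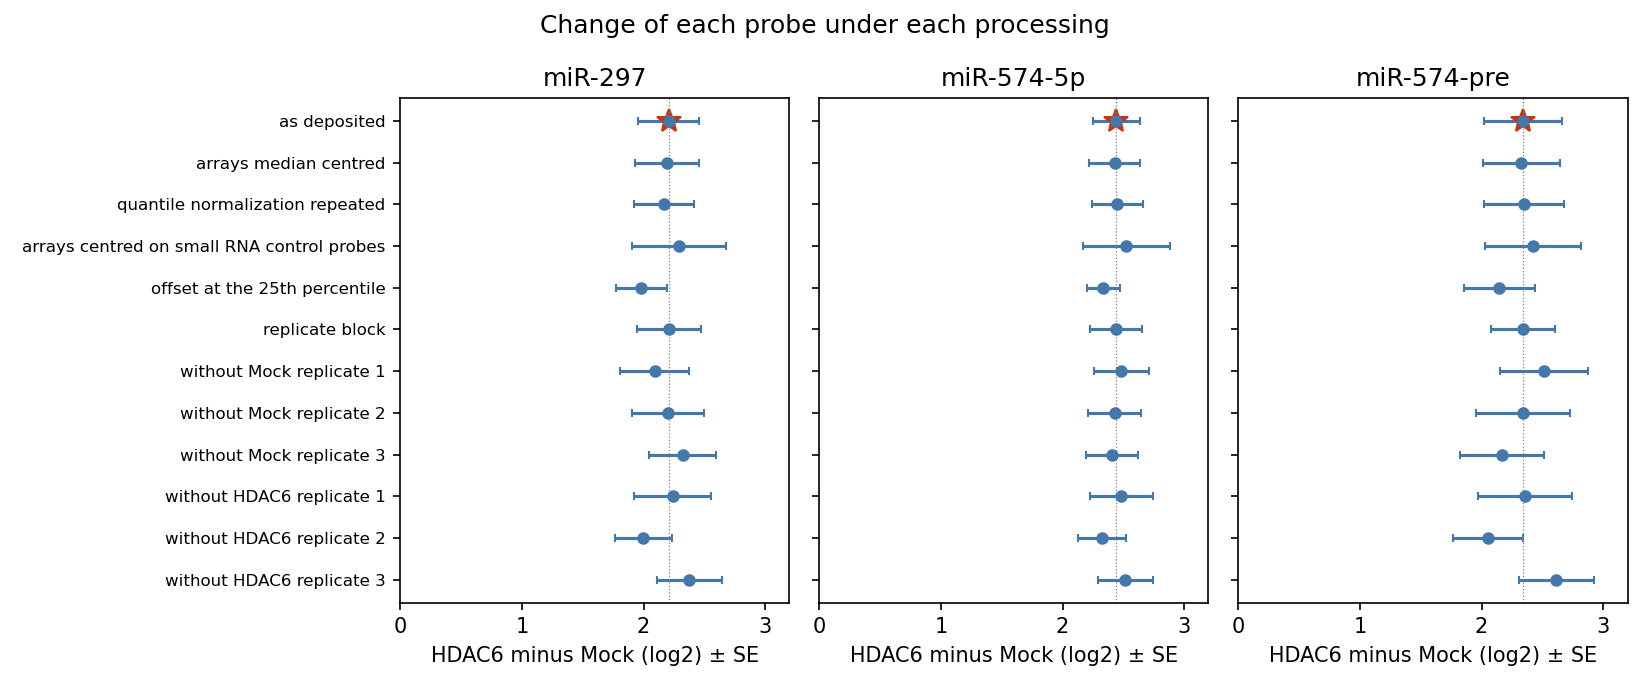
Change of miR-297, miR-574-5p and miR-574-pre (HDAC6 minus Mock, log2, with its SE as the bar, horizontal axis) as deposited (star) and under each alternative (vertical axis). The changes of miR-297 run from 1.98 to 2.38, those of miR-574-5p from 2.32 to 2.52 and those of miR-574-pre from 2.05 to 2.62.

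Rescaling the deposited values, which were already quantile normalized, moved these changes little. These refits do not undo the authors' own scaling, so its part in the changes was not tested. Centring the arrays on 7 small RNA control probes gave 2.29 for miR-297, 2.52 for miR-574-5p and 2.42 for the precursor, and adding an offset of 93.85 to the antilogs (their 25th percentile), which shrinks the changes of dim probes most, gave 1.98, 2.34 and 2.15. MiR-574-5p, the brightest of the 3, kept the narrowest range, 5.01-fold to 5.75-fold over 11 alternatives, and miR-297 ranged from 3.95-fold to 5.20-fold.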

How the data were processed

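Per the labels and the series' design text, 10 ug of pooled total RNA was biotin-labelled and hybridized to a GenoExplorer microRNA chip, and an Axon scanner and GenePix Pro 5.0 gave the signals. The authors removed spots judged poor by eye, averaged the mean signals of 3 spots per probe and applied quantile normalization and class-specific filtering in GenePlex 3.0. How background was corrected and how the filter worked is not given in the sources used here. That the deposited signals are log2 values was read from their range: they run from 3.52 to 15.78, with array medians of 7.51 to 7.58. The table held 581 probes after 1 blank row was left out. The number of arrays limits the precision.

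HDAC6 and Mock arrays, grouped by sample title, were compared with limma (version 3.58.1, R 4.3.3; a two-sided moderated test with no covariate), with Benjamini-Hochberg adjustment over all 581 probes and a threshold of 0.05. The fit was run on simulated independent values with known changes. That run cannot show whether the p-values hold for arrays that may share a pool. The members and lists were chosen with earlier results of these data known. Named probes were the members, the miR-574 precursor, their 4 nearest probes, their neighbours by size of change, up to 6 probes per list and the probes with the longest GU runs. Names were paired with RefSeq (GRCh38.p14) exactly (150 probes) or through the only listed arm (32), and names that fit several sequences (126) or had no entry (78) were left out. RNAfold 2.7.2 folded the hairpin. Alternatives were other scalings, an offset, brighter probes alone, array weights, a trend with robust priors, the replicate number as a block, each array left out, and other list limits. Pairing by exact name alone was added after the data were seen.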

Additional observations from a re-analysis of the deposited data

How the results depend on the processing

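The changes of miR-297, miR-574-5p and miR-574-pre kept their direction and moved by less than 1 SD between arrays, pooled over the groups, under each of 11 alternatives, and leaving out 1 array gave 1.998 to 2.38, 2.32 to 2.52 and 2.05 to 2.62. The change of miR-574-5p relative to its precursor was between -0.10 and 0.27 without 1 array and 0.19 with the offset. Calls over all probes, 266 as deposited, numbered 166 (81 higher, 85 lower) with control-probe centring, 336 (152 higher, 184 lower) with array weights, 179 to 249 without 1 array, and 93 to 139 were then lower. Calls in the list with GU runs of at least 6 bases, 2 as deposited, numbered 1 with repeated quantile normalization, control-probe centring, the offset, the replicate block, brighter probes alone and exact names, 5 at 5 bases or with either arm, 0 at 7 bases, and 1 or 2 without 1 array. MiR-1299 was called in all 14 refits, and the missing call was that of miR-660, which was not tested among brighter probes. At 75% G plus U 3 probes were called. On chromosome 4 the higher calls numbered 2 to 4 over 14 alternatives. The lower calls there numbered 1 with array weights and with a trend and robust priors, and 0 or 1 without 1 array.

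Same-numbered arrays correlated in their deviations from the group means at 0.16, -0.09 and 0.19, and differently numbered ones at -0.29 to 0.19. With so few arrays these values do not settle whether the numbers pair them. With the replicate number as a block the changes of the members are the same by construction, 2.21 and 2.44. Their SE were 0.263 and 0.213, against 0.252 and 0.192 without the block. For miR-574-pre the SE was 0.262 with the block and 0.322 without it. Depth is not defined for these arrays, and signal over background was not given.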
